A study of Mus musculus with 3 samples.

Results

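Intergenic regions of ubiquitinated histone H2A (H2AK119ub) are described here in the tongue epithelium of newborn mice. They are all rows that the authors classed as intergenic, 1 of 4 location classes, in the called-region lists of the H2AK119ub chromatin immunoprecipitation (ChIP-seq) replicates: 1229 of 7838 regions in replicate 1 and 1289 of 8093 in replicate 2. The labels call the cells basal and the epithelium non-gustatory. Both libraries came from cells bearing the epithelial surface protein EpCAM, sorted from tongues of control mice at postnatal day 0 after the part with the circumvallate papillae was cut away. The submitters call the replicates biological; the labels give the genotype only as control, and strain, sex and animals per library are not known here. An input library of the same kind of sample was not analysed here. The lists hold positions and names without any measure of signal, so the depth is unknown, the epithelial identity of the cells could not be checked against marker expression, and the values below are presence, width and position.

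H2AK119ub is the histone mark that Polycomb repressive complex 1 (PRC1) places on chromatin through its Ring1 ubiquitin ligases. The mark is best known over promoters of silent developmental regulator genes, which are often rich in CpG dinucleotides, and variant forms of the complex also spread it widely at a low level between genes. Stretches between genes hold much of the enhancer sequence of developmental genes, together with many starts of long noncoding RNAs (lncRNAs).

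The class label was first set against RefSeq gene bounds (GRCm38.p6, the assembly of mm10). Of the intergenic regions, 52 in replicate 1 (4.23%) and 65 in replicate 2 (5.04%) overlapped a protein-coding gene of that annotation, and 333 and 339 more overlapped only noncoding genes or pseudogenes. In the class called distal, which the authors attach to a gene by name, 15.3% and 14.0% overlapped a protein-coding gene. The label therefore means intergenic in the authors' annotation, and some members lie over genes that RefSeq lists.

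Sequence was read only before transcript starts inside the regions, a small subset, and not across the regions themselves. The RefSeq start table has 9520 of 12697 annotated lncRNA genes and 17274 of 21631 protein-coding genes. Of these, 98 lncRNA genes in replicate 1 and 100 in replicate 2 had a start inside an intergenic region, 48 of them in both, against 7 and 6 protein-coding genes, 4 of them in both. The 250 bases before the lncRNA starts present in both lists had a median observed-to-expected CpG ratio of 0.199, beside 0.243 over all lncRNA starts in the table. A ratio of 0.6 or more was found for 4 of 48 (8.33%), beside 14.6% of all. The class label follows position relative to genes, so regions at starts that the authors' annotation holds can fall in other classes. All starts are therefore not a like set, and these counts and ratios can follow from the selection. Printed here are the 3 highest and the 3 lowest ratios among the lncRNA genes with a start in both lists, as the 250 bases before the start, 5′ to 3′ on the gene's strand, from RefSeq (GRCm38.p6), with each CpG in capitals. The first 3 have the highest ratios.
Gm32351: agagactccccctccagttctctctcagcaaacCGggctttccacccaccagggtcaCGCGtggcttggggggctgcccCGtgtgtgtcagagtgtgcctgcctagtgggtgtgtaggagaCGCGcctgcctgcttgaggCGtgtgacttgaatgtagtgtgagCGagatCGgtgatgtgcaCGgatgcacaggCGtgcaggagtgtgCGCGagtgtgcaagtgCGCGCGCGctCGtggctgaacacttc
2900024J01Rik: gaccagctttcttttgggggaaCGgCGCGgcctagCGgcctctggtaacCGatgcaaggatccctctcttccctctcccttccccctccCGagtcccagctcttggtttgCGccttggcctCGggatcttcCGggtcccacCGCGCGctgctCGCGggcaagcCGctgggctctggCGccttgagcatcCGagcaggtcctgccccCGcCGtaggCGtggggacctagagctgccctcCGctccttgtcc
Gm4718: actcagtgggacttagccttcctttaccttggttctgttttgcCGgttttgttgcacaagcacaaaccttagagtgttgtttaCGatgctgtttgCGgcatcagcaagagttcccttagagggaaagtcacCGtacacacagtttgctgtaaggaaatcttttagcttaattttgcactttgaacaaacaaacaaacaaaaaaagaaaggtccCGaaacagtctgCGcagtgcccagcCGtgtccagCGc
The other 3 have no CpG.
Gm28401: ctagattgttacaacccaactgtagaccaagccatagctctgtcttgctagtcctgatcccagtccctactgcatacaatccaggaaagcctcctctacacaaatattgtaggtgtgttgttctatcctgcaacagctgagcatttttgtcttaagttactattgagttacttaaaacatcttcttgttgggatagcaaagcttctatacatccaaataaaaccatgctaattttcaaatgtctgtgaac
Gm34992: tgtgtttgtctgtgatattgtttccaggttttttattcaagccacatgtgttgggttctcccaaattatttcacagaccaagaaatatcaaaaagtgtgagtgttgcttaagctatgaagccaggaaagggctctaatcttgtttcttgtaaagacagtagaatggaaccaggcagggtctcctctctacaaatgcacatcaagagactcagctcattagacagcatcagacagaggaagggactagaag
Gm46023: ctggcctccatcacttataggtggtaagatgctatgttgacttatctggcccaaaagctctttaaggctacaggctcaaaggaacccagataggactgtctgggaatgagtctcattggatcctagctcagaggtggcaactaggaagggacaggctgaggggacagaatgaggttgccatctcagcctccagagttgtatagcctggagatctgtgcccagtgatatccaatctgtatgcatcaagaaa

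In order of printing, the stretches with the highest ratios are chr13:94702889-94703138 (minus strand, 18 CpG), chr1:180777711-180777960 (plus strand, 21 CpG) and chr17:85799474-85799723 (plus strand, 8 CpG). The last of these has a GC content of 45.2%, under the 48.4% median of all lncRNA starts. Its ratio of 0.627 comes with fewer CpG than the 18 and 21 above, though its 8 exceed the median of 3 over all lncRNA starts. The stretches without a CpG are chr11:18765492-18765741 (minus strand), chr1:90337481-90337730 (plus strand) and chr7:145068791-145069040 (plus strand). The region around the Gm32351 start measured 15.2 kb in replicate 1 and 15.7 kb in replicate 2. That around the CpG-free Gm28401 start measured 25.03 and 17.7 kb, so wide regions stood over both kinds of start. Among protein-coding genes, Slc35f3, a solute carrier gene, and Fat3, an atypical cadherin gene, had a CpG-rich start (ratios 0.989 and 0.877) inside a region of both lists that the authors classed as intergenic. The Slc35f3 start lay in regions of 5.83 and 4.86 kb and the Fat3 start in regions of 4.86 and 6.32 kb.

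The replicates were then compared region by region. A partner, meaning any region of the other list that shared 1 bp or more, was found for 692 intergenic regions of replicate 1 (56.3%, exact Clopper-Pearson 95% interval 53.5 to 59.1%). It was found for 732 of replicate 2 (56.8%, 54.0 to 59.5%). Over all classes the shares were 61.1% and 61.2%, so the intergenic share lay slightly below the background, near the distal class (55.3% and 56.6%) and under the promoter class (73.7% and 73.4%). The intervals allow for counting error alone, since members of 1 list are not replicates of the tissue. The partner was nearly always intergenic as well: 666 of the replicate 1 regions had partners of that class alone, 15 a distal partner alone and 2 a promoter partner alone. In base pairs, the intergenic regions of the lists had 3.68 Mb in common of the 11.6 Mb that either covered (31.6%).

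Wide regions had a partner more often than narrow ones. In replicate 1, 31.5% of regions of 1000 to 2000 bp had a partner, 61.8% of those of 4000 to 8000 bp and 88.6% of those of 16000 to 32000 bp. In replicate 2 the same widths gave 36.9%, 66.6% and 78.7%. Wider regions meet a partner more readily by their size alone, and the part of that in the trend was not tested. Of the 537 replicate 1 regions without a partner, 105 (19.6%) lay within 10 kb of a replicate 2 region, and so did 22.1% of the 557 the other way, so about 1 in 5 lay close to a region of the other list. The widest regions without a partner included one of 37.2 kb between Tfap2c and Bmp7 in replicate 1, 4.97 kb from a replicate 2 region. In replicate 2 they included one of 34.6 kb between Ccnd1, the cyclin D1 gene, and Smim38, 8.52 kb from a replicate 1 region. Its end ran into the protein-coding gene Tpcn2, which lies between them. Between Cibar2 and Gins2 each list had an unmatched region, 35.7 kb wide in replicate 1 and 33.7 kb in replicate 2, at different positions. Both overlapped a protein-coding gene of RefSeq, so neither lay wholly in a gap between neighbouring genes.

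**Figure D1:**
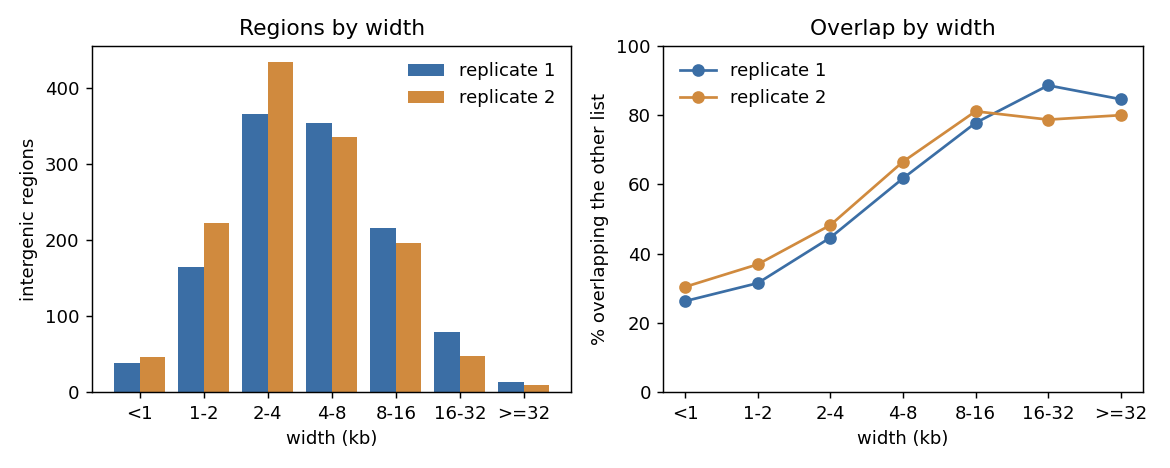
Number of intergenic regions per width class (left) and the percentage of each class that overlaps a region of the other replicate's list by at least 1 bp (right), both against width in kb, for replicates 1 and 2. Regions of 2 to 4 kb are the most numerous, and the overlapping share climbs from 26.3% and 30.4% under 1 kb to 77.8% and 81.1% at 8 to 16 kb.

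Intergenic regions were a few kilobases wide with a long upper tail. The median was 4376 bp in replicate 1 (quartiles 2527 and 8013 bp) and 3638 bp in replicate 2 (2158 and 6512 bp), or 4007 ± 522 bp (SD, n = 2). Within each list that was wider than the distal class (3845 and 3290 bp) and the gene body class (3702 and 3344 bp) and narrower than the promoter class (8081 and 6844 bp). Regions of 20 kb or more numbered 57 (4.64%) and 31 (2.40%). Regions with a partner had medians of 5924 and 4725 bp, and those without one 3080 and 2713 bp. Among 591 pairs of intergenic regions with a single intergenic partner on each side, 346 (58.5%) were wider in replicate 1. In these pairs, starts and ends differed by medians of 1185 and 1266 bp.

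The 12 widest overlapping pairs formed 9 loci, because a region of one list sometimes spanned several of the other. Widest was a stretch on chromosome 6 between Hrh1, a histamine receptor gene, and Atg7, an autophagy gene, with a first base of 114490192 and a last of 114637521 (147 kb, replicate 1). The replicate 2 bounds were 114489647 and 114637271 (148 kb), so its start and end moved by only 545 and 250 bp. This locus filled nearly the whole gap between the genes, beginning 6.89 kb after Hrh1 and ending 5.60 kb before Atg7 in replicate 1. On chromosome X, a region between Zxdb and Spin4 measured 44.8 kb in replicate 1 (bases 94873163 to 94917914), while that of replicate 2 measured 45.5 kb, with ends 724 and 24 bp apart. Of the 591 single pairs, 51 (8.63%) had both ends within 500 bp, a limit that neither of these loci met.

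Several of the other widest loci had a gene of development or signalling as a flanking gene, not always close by. Rbpj on chromosome 5 encodes the DNA-binding effector of Notch. At 44.2 kb from it, a replicate 1 region of 81.4 kb spanned replicate 2 regions of 53.5 and 14.2 kb. Between Tfap2c, an AP-2 factor gene of surface ectoderm, and Bmp7, a bone morphogenetic protein gene, regions on chromosome 2 measured 56.6 and 65.2 kb (172783302 to 172839932 in replicate 1), the former ending 28.1 kb from Bmp7. Between Uaca and Tle3 on chromosome 9 they measured 30.7 and 31.6 kb and lay 192 kb from Tle3 in both lists. Between Dlx4, a homeobox gene on chromosome 11, and Tac4 they measured 27.9 and 27.7 kb (95189328 to 95217257 in replicate 1). The replicate 1 region was 43.0 kb from Dlx4 and 44.3 kb from Tac4. The rest lay on chromosomes 7, 2 and 17. Those between Polg and Rhcg on chromosome 7 measured 36.4 and 32.3 kb. Those between Gm30733, the nearer gene, and Prex1 on chromosome 2 measured 26.6 and 44.8 kb. Beside Sik1 on chromosome 17, 1 replicate 2 region of 41.5 kb met 2 replicate 1 regions of 24.8 and 24.1 kb.

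Intergenic regions often had neighbours of their own kind. In replicate 1, 694 (56.5%) had another intergenic region within 100 kb, and in replicate 2 it was 786 (61.0%), a mean of 58.7% ± 3.19 (SD, n = 2). For all regions, each against its own class, it was 52.2% and 56.0%, a few percentage points lower. The share was 49.5% and 52.1% for the distal class but 56.6% and 62.5% for the gene body class, so it was not highest among intergenic regions. The nearest region of any kind was itself intergenic for 58.0% and 62.0% of members, while that class made up 15.7% and 15.9% of the lists. The label follows position relative to genes, so regions close together can share it for that reason alone. This share was not counted for the other classes. Joined across gaps of up to 100 kb, the members formed 762 runs in replicate 1 and 760 in replicate 2. Of these, 535 and 503 were single regions, while 25 and 40 runs had at least 5 members and held 14.8% and 20.6% of all members. In the distal class 12 and 15 runs reached that size, with 4.27% and 4.58% of its regions. Runs were not built for the gene body and promoter classes, so long runs cannot be called particular to intergenic regions.

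Chromosomes differed in density. Per Mb of sequence between protein-coding genes there were 0.783 intergenic regions in replicate 1 and 0.821 in replicate 2. Chromosome 13 was highest in both lists, with 106 and 121 regions (1.40 and 1.60 per Mb), where they made up 32.1% and 34.3% of its regions of every class. Chromosomes 8 (1.34 and 1.42 per Mb), 9 (1.20 and 1.45) and 11 (1.05 and 1.26) took the next 3 ranks in both lists, with 8 and 9 exchanging places. Chromosome 14 (0.43 and 0.34) and X (0.36 and 0.31) were lowest in both. On X the 45 and 39 members made up 30.4% and 29.5% of its few regions. Of these members, 14 and 9 lay in the single gap between H2al1j and Bcor.

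**Figure D2:**
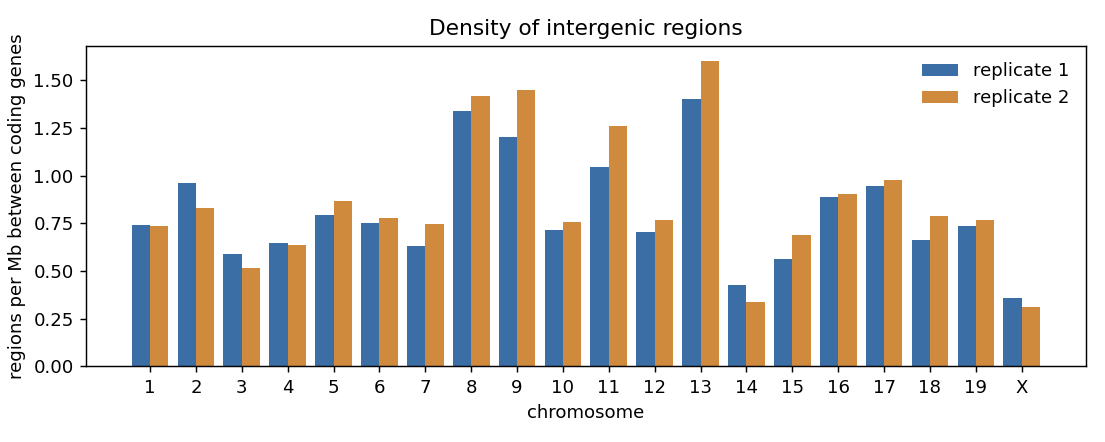
Intergenic regions per Mb of sequence between protein-coding genes (y axis) on each autosome and X (x axis), for replicates 1 and 2. Chromosome 13 stands highest at 1.40 and 1.60 per Mb, and chromosome 14 and X lowest.

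Intergenic regions filled some gaps between neighbouring protein-coding genes and left most empty. Of 19442 such gaps, 626 held a member in replicate 1, 616 in replicate 2 and 448 in both (71.6% and 72.7% of those in each list). The gaps with members in both were long, with a median of 247 kb beside 15.6 kb for gaps with none. Density did not simply follow length. It was 0.24 and 0.27 members per Mb in gaps under 50 kb, 1.60 and 1.69 in gaps of 250 to 500 kb, and 0.20 and 0.20 in the 281 gaps of 1000 kb or more, the gene deserts.

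The 6 fullest gaps, by members summed over both lists with ties settled by covered length, included 3 beside genes of Polycomb proteins. The gap of 928 kb between Cd83, an immune cell surface gene, and Jarid2, the gene of a PRC2 accessory subunit that binds H2AK119ub, held 15 regions in each list. They covered 102 kb in replicate 1 and 76.4 kb in replicate 2, and 9 and 10 of them lay within 250 kb of Jarid2 while 3 and 3 lay within 250 kb of Cd83. Bcor is the gene of a scaffold protein of the variant PRC1.1 complex. Between H2al1j and Bcor, 14 and 9 regions stood in 709 kb, with median widths of 4.73 and 3.82 kb. The gap of 502 kb between Prok2 and Rybp, which encodes a subunit of variant PRC1, held 8 and 11 regions that covered 22.1% and 34.4% of it. All 8 of the replicate 1 regions there had a partner, and 9 of the 11 in replicate 2, whereas between H2al1j and Bcor it was 5 of 14 and 5 of 9.

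The remaining 3 of the fullest gaps lay beside genes of other kinds. Between Tle3, a Groucho corepressor gene, and Rplp1, a ribosomal protein gene, 14 and 13 regions covered 43.5% and 30.6% of 495 kb, in widths of up to 43.9 and 29.9 kb. Between Thap1 and Zfp703, a zinc finger corepressor gene, 11 and 13 regions stood in 813 kb, and 10 and 12 of them had a partner. Between Ackr3, a chemokine scavenger receptor gene, and Cops8, 10 and 9 regions stood in 387 kb, of which 8 and 7 lay within 250 kb of Ackr3. The CpG-free Gm34992 start printed above lies in this gap, in regions of 20.3 and 6.38 kb. The gap between Gadd45g and Diras2, with 6 and 13 regions, tied in number with the fifth and sixth and fell behind them by covered length. In all, the 20 fullest gaps of each list held 13.9% and 14.6% of its members.

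**Figure D3:**
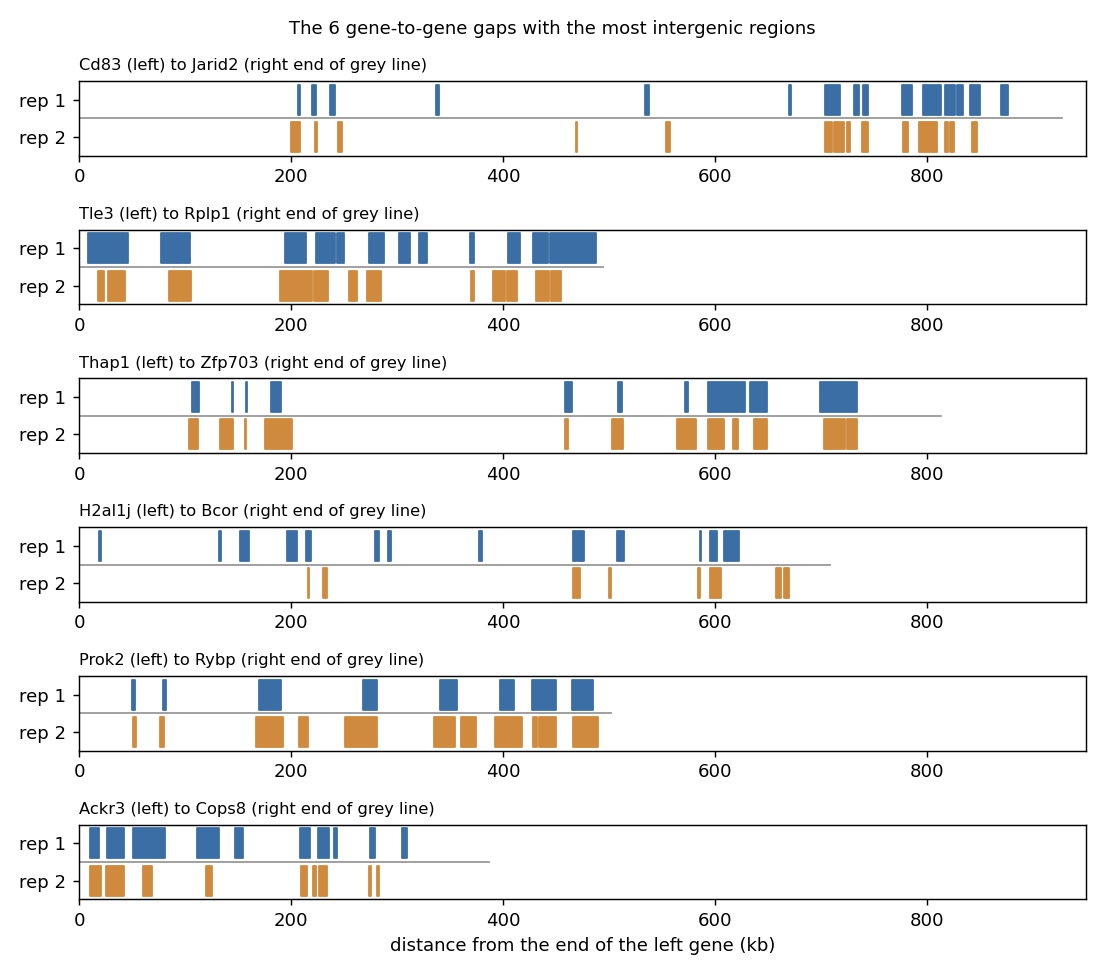
Position of each intergenic region in the 6 gene-to-gene gaps that hold the most of them (ties settled by covered length), as distance in kb from the end of the left gene, with replicate 1 above and replicate 2 below the grey line that marks the gap. In the Cd83 to Jarid2 gap most regions crowd towards Jarid2, and in the Prok2 to Rybp gap the blocks of the lists coincide.

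The flanking protein-coding gene was usually far away. The median distance to the nearest was 64.0 kb in replicate 1 and 64.7 kb in replicate 2, beside 9.50 and 9.32 kb for the distal class, and 61.8% and 61.6% of members lay over 50 kb from any. The class label itself sorts regions by position relative to genes, so a larger distance than in the distal class follows from the selection. Counted to genes of every biotype, the mean of the medians was 7.26 kb, so noncoding genes stood much closer. Farther than 500 kb from a protein-coding gene were 16 members in replicate 1 and 11 in replicate 2. The most remote overlapping pair, on chromosome 7 (71409441 to 71413332 in replicate 1), was 664 kb from Mctp2, with widths of 3.89 and 1.52 kb.

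Genes beside the regions were often named by a promoter region themselves. At least 1 flanking gene was so named in the same list for 597 members in replicate 1 (48.6%) and 599 in replicate 2 (46.5%), beside 22.1% and 21.6% of all gene-to-gene gaps and 12.8% and 12.4% of all protein-coding genes. The distal class gave 45.4% and 45.5%, close to the share of intergenic regions. Within gaps of 100 to 250 kb, a flanking gene was named for 46.8% and 43.1% of gaps with a member and for 19.9% and 19.6% of gaps without. Among the fullest gaps the pattern varied: Prok2, Rybp and Zfp703 were named by a promoter region in both lists, Jarid2, Bcor, Ackr3 and Tle3 in replicate 1 alone, and Rplp1 in replicate 2 alone.

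Developmental transcription factor genes flanked 292 members in replicate 1 (23.8%) and 300 in replicate 2 (23.3%), counting the homeobox list, the T-box, Gata, Sox and Fox list, the bHLH list and the list of zinc finger and other factors. All gene-to-gene gaps gave 4.23%, and distal regions 11.97% and 12.3%. Long gaps are more often flanked by such genes, so gaps of like length were compared: at 500 to 1000 kb, 26 of 75 gaps with members in both lists (34.7%) had a listed factor gene beside them, and 14.1% of gaps with none. At 250 to 500 kb it was 17.1% and 7.55%. These shares are descriptions, with no test, and several members share 1 gap.

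**Figure D4:**
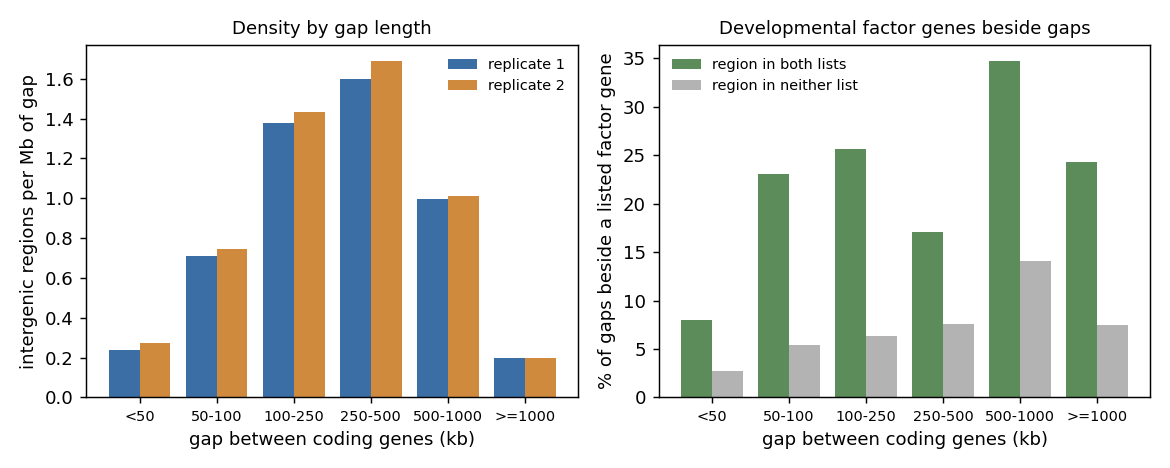
Left, intergenic regions per Mb of gap by the length of the gap between protein-coding genes in kb, for replicates 1 and 2. Right, percentage of gaps in each length class with a flanking gene of the developmental factor lists, for gaps with a region in both lists (green) and in neither (grey); green exceeds grey in every class, on only 25 gaps with a region in both lists under 50 kb.

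Of all protein-coding genes, 4.19% flanked a member in both lists. For homeobox genes it was 37 of 190 (19.5%), led in shared length by Barx1, a tooth and stomach factor. Barx1 had 4 and 5 flanking regions, the nearest 11.2 and 11.5 kb away and 5.72 and 5.48 kb wide (48677669 to 48683386 on chromosome 13 in replicate 1). Meis1, a Hox cofactor gene, had 9 and 6, of which the nearest was 3.12 kb away in replicate 1 but 114 kb away in replicate 2, where it was the region around the Gm28401 start printed above. Beside Hoxc4, at an end of the Hoxc cluster, lay regions of 32.4 and 19.7 kb (103080470 to 103112917 on chromosome 15 in replicate 1).

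For T-box, Gata, Sox and Fox genes it was 22 of 86 (25.6%). Foxd1, a kidney and retina factor, had 5 and 7 flanking regions with 50.8 and 64.8 kb in all. Foxl1, a mesenchymal factor, had 10 and 8 (82.3 and 50.7 kb), Foxi3, an ectodermal placode factor, 3 and 4, and Foxf1 4 and 4. Sox2, the progenitor factor of taste buds, had 4 regions in each list, 18.8 and 19.9 kb in all, the nearest at 138 and 31.5 kb. Of its overlapping pairs, the one nearer the gene was 11.0 and 4.83 kb wide. Sox9, a factor of cartilage and epithelial progenitors, had 2 in each list, and Tbx3, a limb and mammary factor, had 4 and 7.

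For bHLH genes it was 11 of 69 (15.9%). Hes1, a Notch target that encodes a repressor, had 13 and 15 flanking regions that summed to 110 and 93.3 kb, and 58.5 kb was common to the lists. Msc, Npas3 and Hand2 had 2 or fewer in each list. For the list of zinc finger and other factors it was 35 of 127 (27.6%), with AP-2 genes in 3 of the 4 leading places. Tfap2c had 4 and 5 regions with 67.0 kb common to the lists, Tfap2b, a neural crest factor, 3 and 2, and Tfap2a, a factor of ectoderm and neural crest, 7 and 7 (42.1 and 29.8 kb). Ets2 had 3 and 5.

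Secreted signals had 10 of 104 genes beside a member in both lists (9.62%). In gaps of 100 kb or more, the list flanked 2.16% of the 371 with members in both lists. Of the 2160 such gaps with none it flanked 1.57%. Bmp7 led by the same regions as Tfap2c. Nog, which encodes a Bmp antagonist, had 4 and 3 regions, Wnt11 1 and 3, and Shh, the Hedgehog ligand of taste papillae, 2 and 1, with a single overlapping pair of 3.72 and 5.07 kb 445 kb away on the side of Rnf32. Isl1, Pax9 and the epithelial master regulator Trp63 had 0 flanking regions in each list. The nearest member lay 1347 and 1401 kb from Trp63 and 379 and 229 kb from Pax9.

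Genes of nerve cells gave mixed values. Of axon guidance and synaptic adhesion genes, 9.77% flanked a member in both lists, and of ion channel and neurotransmitter receptor genes 5.56%, both above the 4.19% of all protein-coding genes. Cadherins and protocadherins gave 5.66% and matrix genes 4.38%. Among long gaps alone, these lists gave no higher share where members lay: in gaps of 100 kb or more, ion channel and neurotransmitter receptor genes flanked 2.16% of the 371 gaps with members in both lists and 5.23% of the 2160 with none, and axon guidance and synaptic adhesion genes 3.50% and 4.21%. Drd1, a dopamine receptor gene, had 6 and 4 flanking regions, the nearest 236 and 237 kb away. All lay in the gap that it shares with the homeobox gene Msx2, so they flank that gene as well. Epha4, an ephrin receptor gene, had 11 and 8, of which 4 and 2 lay in the gap that it shares with Pax3. In the same long gaps, cadherins and protocadherins stood at 1.08% and 1.81%, and collagens and other matrix genes at 1.08% and 2.13%. Olfactory, vomeronasal and taste receptors had 2 of 1523 genes beside a member in both lists (0.13%), and keratins and cornified envelope genes 0 of 174, with 1 member beside such a gene in each list.

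Lists for other cells and families were mixed. Immune and blood genes flanked 1.35% of the long gaps with members in both lists and 2.36% of those with none. Muscle genes gave 0.27% and 0.05%, and endothelial genes 0.54% and 0.28%. Their shares with members rest on only 1 and 2 of 371 gaps. Numbered zinc finger genes gave 3.50% and 2.27%, and Zfp608 (10 and 16) and Zfp703 (11 and 13) flanked most of the 40 and 53 members beside them. A list of 45 Polycomb component genes, added after Jarid2, Bcor and Rybp had been seen among the fullest gaps, had 5 genes beside a member in both lists (11.1%), namely these 3 with Wdr5 and Auts2. Rybp had 12 and 17 flanking regions on its 2 sides (163 and 204 kb), Jarid2 15 and 15, and Bcor 15 and 12, so the list's 45 and 47 members came almost wholly from 3 genes. The Ring1 ligase genes themselves, Ring1 and Rnf2, had 0 flanking regions in each list.

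**Figure D5:**
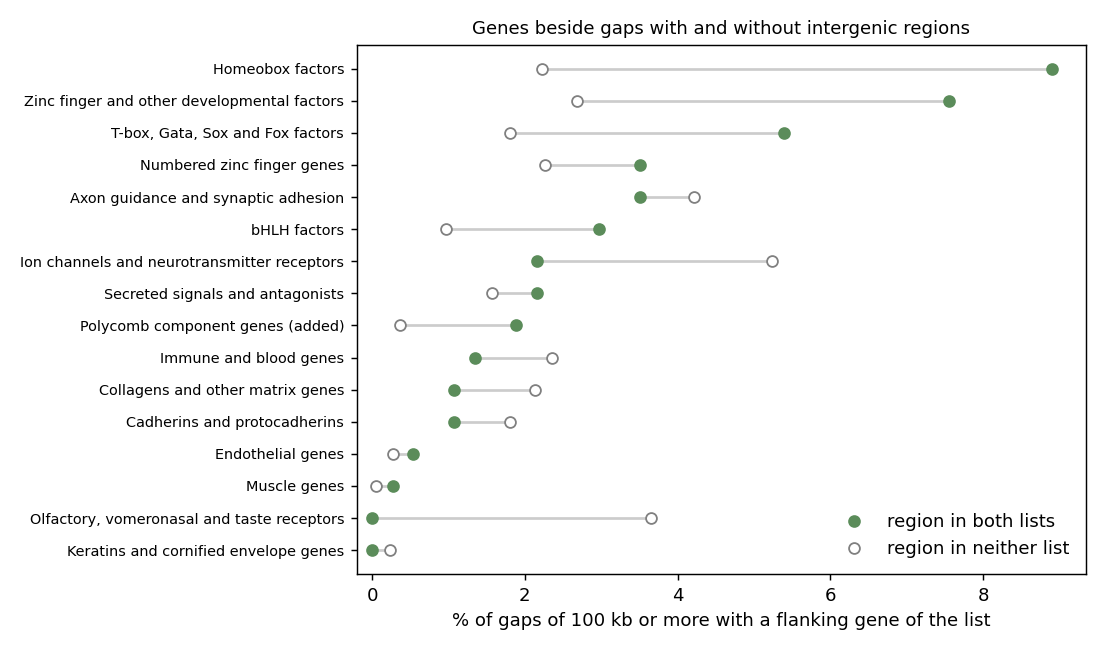
Percentage of gaps of 100 kb or more between protein-coding genes with a flanking gene of each list, for 371 gaps with an intergenic region in both replicates (filled) and 2160 with none in either (open). The developmental factor lists lie to the right in gaps with regions (homeobox 8.89% and 2.22%), and receptor and channel lists to the left.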

How the data were processed

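H2AK119ub ChIP-seq was analysed from 2 libraries of 1 group (4 ng of DNA each, per the labels' protocols). For each replicate the authors deposited a list of regions, with mm10 positions and a location class, per the file headers. These columns hold no signal, so no model or test of strength could be run. The submitters' processing notes name SAMtools 0.1.19 and Bowtie2 2.3.3. For the peak caller, whether it used the input, the class distances and the coordinate base, details were not given in the sources used here. How the caller joined nearby signal affects widths, counts and gaps between regions.

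Positions were taken as first and last base. Overlap was counted from 1 bp, runs were joined across gaps of up to 100 kb, and flanking genes were the nearest protein-coding genes of RefSeq GRCm38.p6 (21631 on autosomes and X) ending before and starting after a region. Functions for overlap, gaps, runs and flanks were tested on simulated data. No test over regions or gene lists was made, and values are given per replicate or as mean ± SD. Members, lists and rules were chosen with earlier results of these data known. Named items were the 12 widest overlapping pairs, the 3 widest unmatched regions per list, the 6 fullest gaps, the 3 most remote pairs, up to 4 genes per list by shared length and 8 fixed genes; other names, and the Polycomb list, were picked once their values had been seen, and some items of the rule are not reported here. Alternatives changed the overlap, the link distance, the gene set, widths, X and each replicate. Work was done in Python 3.11.15 with pandas 2.3.3, numpy 2.4.6, matplotlib 3.10.9 and scipy 1.17.1. Gene lists are symbol patterns.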

Additional observations from a re-analysis of the deposited data

How the results depend on the processing

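For 6 results, 24 alternatives were run beside leaving out each replicate; 4 gave a mean within 1 SD of the 2 replicates and 20 moved further. Of 2 replicates, either one always lies within 1 SD of their mean, and shares and medians of this kind cannot change sign, so neither says anything of stability. No paired analysis was possible because the 2 replicates form 1 group. The overlapping share (56.5%) was 30.2% with at least 50% of both regions covered, 54.5% with an intergenic partner only, 72.8% for regions above the median width of their list, 55.6% without the widest 5% and 57.1% without X. Leaving out each replicate gave 56.3 to 56.8% for it, 3638 to 4376 bp for the median width, 56.5 to 61.0% for members within 100 kb of another, 64.0 to 64.7 kb for the distance to a coding gene, 46.5 to 48.6% for a promoter-named flank and 23.3 to 23.8% for a developmental flank. Limited to regions with a partner, these were 5325 bp, 51.4%, 61.0 kb, 52.0% and 25.1%. The clustered share was 49.9% at 50 kb and 70.0% at 250 kb. The distance was 7.26 kb to genes of all biotypes and 63.3 kb without X. A promoter-named flank was found for 28.5% by the nearest gene only, 37.4% by genes named in both lists and 44.5% within 500 kb, and a developmental flank for 13.3% by the nearest gene only, 21.2% within 500 kb and 24.3% without X. The cause of these moves was not tested beyond each alternative's own construction. Depth, unknown here, limits what a region missing from one list can show.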

Other observations

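Protein-coding starts inside an intergenic region of a single list included those of Hmcn2, a hemicentin gene, in a replicate 1 region of 12.8 kb, Pdzd2 in a replicate 1 region of 11.0 kb, and Erfl in a replicate 2 region of 10.1 kb. The 250 bases before the Erfl start held 30 CpG, an observed-to-expected ratio of 1.27. Of 1005 miRNA hairpins in the RefSeq table, 0 overlapped an intergenic region in either list. The label follows position relative to genes, so this count can follow from the selection, and hairpins in the other classes were not counted. Members over a protein-coding gene of RefSeq had a partner in 34 of 52 cases in replicate 1 (65.4%) and 34 of 65 in replicate 2 (52.3%).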
